A study of Mus musculus with 12 samples.

Results

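The genes described here encode 9 receptors by which neutrophils and related myeloid cells sense attractants. They are Cxcr2 and Cxcr4 for CXC chemokines, Ccr1, Ccr2 and Ccrl2 for CC chemokines and related ligands, Fpr1 and Fpr2 for formylated peptides, C5ar1 for the complement fragment C5a, and Ptafr for platelet-activating factor. They were taken as a given list, chosen with earlier results of these data known, and matched by symbol. All 9 were found among the 23309 genes of the deposited table. Their values are FPKM, fragments per transcript length and library depth, for which the authors had set the level of each library by synthetic ERCC spike-in RNAs. Only genes that reached 1 FPKM in 2 or more of the 12 libraries were tested, 11516 genes in all. The 9 receptors were among these, but Fpr1 and Fpr2 reached 1 FPKM only in 96 h libraries, and C5ar1 only in those and in 1 wild-type library at 36 h.

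The cells were mouse myeloid progenitors, made from CD117+ bone marrow cells with a retrovirus that expresses HoxB8 fused to the estrogen receptor. All 6 groups carry this fusion and were grown in interleukin 3 and estradiol (E2), which keeps the fusion active and the cells immature. HMGN1-OE cells come from transgenic mice that overexpress human HMGN1, a nucleosome-binding protein, and wild-type cells from littermates, all on a C57BL/6 background. Each genotype was sampled at 0, 36 and 96 h after E2 was withdrawn, with 2 libraries per genotype and time, described as biological duplicates. The age of the mice, the promoter of the transgene and whether the duplicates were separate transductions are not given in the sources used here, so p-values measure only the spread between these libraries. The human transgene was not measured here, and the labels of the HMGN1-OE libraries were therefore not checked by it.

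These receptors are G protein-coupled receptors of the plasma membrane, apart from Ccrl2, an atypical member that binds the attractant chemerin and presents it without signalling through G proteins. On a neutrophil, the ligand-bound receptor activates the inhibitory class of G proteins, whose beta-gamma subunits drive phosphoinositide 3-kinase gamma and Rac and so turn the cell toward the source. In bone marrow, Cxcr4 holds neutrophils and progenitors near stroma that makes Cxcl12, and Cxcr2, which binds Cxcl1 and Cxcl2, draws mature neutrophils into blood and toward inflamed tissue.

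During differentiation, Cxcr2, Ccr1, Fpr1, Fpr2 and C5ar1 rose between 0 and 96 h in both genotypes, while Cxcr4, Ccr2 and Ptafr were present at every time and did not pass the test in either genotype. Ccrl2 passed in HMGN1-OE and not in wild-type cells, and this split depended on the scaling: with libraries centred on their medians or quantile normalised, Cxcr4, Ccrl2 and Ptafr were called higher in both genotypes. At 96 h, Fpr1 and Fpr2 were lower in HMGN1-OE than in wild-type libraries, at 0.279 and 0.299 of the wild-type mean, the only receptors of the 9 called between genotypes at any time. Both calls were lost under several other settings.

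The promoters of the 5 genes that rose in both genotypes are shown because these genes share one course over time. Each is the 250 bases before the start site in RefSeq on GRCm38.p6, 5′ to 3′ on the strand of the gene, and capitals mark the core of the PU.1 motif, GAGGAA, on either strand (TTCCTC on the other). PU.1 is a transcription factor of myeloid cells.
Cxcr2, chr1:74153744-74153993 (plus strand): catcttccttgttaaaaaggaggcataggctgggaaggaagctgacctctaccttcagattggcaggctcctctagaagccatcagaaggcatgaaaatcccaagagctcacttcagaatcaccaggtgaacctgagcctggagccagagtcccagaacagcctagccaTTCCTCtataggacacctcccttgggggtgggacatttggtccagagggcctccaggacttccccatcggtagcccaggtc
Ccr1, chr9:123968693-123968942 (minus strand): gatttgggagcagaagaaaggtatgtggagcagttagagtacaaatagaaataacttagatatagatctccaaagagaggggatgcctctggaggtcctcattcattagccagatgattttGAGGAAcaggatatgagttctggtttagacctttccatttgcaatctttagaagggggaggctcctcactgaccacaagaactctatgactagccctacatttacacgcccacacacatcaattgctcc
Fpr1, chr17:17883940-17884189 (minus strand): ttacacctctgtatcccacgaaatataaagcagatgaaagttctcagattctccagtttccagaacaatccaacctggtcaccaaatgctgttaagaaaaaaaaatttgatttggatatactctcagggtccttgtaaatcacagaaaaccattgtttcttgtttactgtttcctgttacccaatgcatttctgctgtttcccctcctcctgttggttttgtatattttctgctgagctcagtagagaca
Fpr2, chr17:17887574-17887823 (plus strand): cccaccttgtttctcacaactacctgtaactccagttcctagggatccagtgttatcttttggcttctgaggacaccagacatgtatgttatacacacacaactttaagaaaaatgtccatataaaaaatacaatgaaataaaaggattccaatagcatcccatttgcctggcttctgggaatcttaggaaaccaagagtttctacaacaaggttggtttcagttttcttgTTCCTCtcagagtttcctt
C5ar1, chr7:16259339-16259588 (minus strand): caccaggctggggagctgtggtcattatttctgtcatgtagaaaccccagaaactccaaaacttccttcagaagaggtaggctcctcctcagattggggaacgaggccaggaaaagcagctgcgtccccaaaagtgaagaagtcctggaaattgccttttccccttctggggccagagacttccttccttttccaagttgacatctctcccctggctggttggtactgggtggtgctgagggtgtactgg

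The PU.1 core lay 81 bases before the start site in Cxcr2, 129 in Ccr1 and 19 in Fpr2, and the promoters of Fpr1 and C5ar1 held none in this window. Among the other 4 receptors, Ptafr held it 242 bases before the start. Of 32851 RefSeq promoters of the same length, 23.3% held this core on either strand. A C/EBP pattern, TTGCNNAA or TTNNGCAA, was found in 9.56% of these promoters and in none of the 9 receptors, and it overlapped no PU.1 core shown here. These are matches of letters only, and binding was not measured.

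In GENCODE vM21, Cxcr2 and Cxcr4 lie on chromosome 1, Ccr1, Ccr2 and Ccrl2 on chromosome 9, Fpr1 and Fpr2 on chromosome 17, C5ar1 on chromosome 7 and Ptafr on chromosome 4. The exons of Fpr2 overlap those of Fpr3 on the same strand, and 39.5% of its 36-base stretches occur in other genes, among them Fpr1, Fpr3 and Gm5966. Its level is therefore uncertain where reads were shared. Such shared stretches made up 10.3% of Cxcr2, 2.83% of Ccr2, 2.8% of Ptafr, 1.16% of Fpr1 and 0.429% of Ccr1, and none of Cxcr4, Ccrl2 or C5ar1.

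No read counts could be recovered from the FPKM, so depth is unknown and no counting interval is given. Genes without signal are listed near 0.1 FPKM (0.0967 to 0.105, depending on the library). Differences are HMGN1-OE minus wild type, or later minus earlier, on the log2(FPKM + 1) scale, which understates changes of low genes. They were tested with limma and adjusted by Benjamini-Hochberg over all 11516 genes, and called means an adjusted p under 0.05. limma took each variance from a trend over expression, so duplicates that differ widely do not raise the p of their gene, and an exact permutation of 2 against 2 libraries can give no p below 0.333. Most genes fell on the spike-in scale: the median change of all tested genes from 0 to 96 h was -1.75 in wild-type cells and -1.28 in HMGN1-OE cells.

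Markers of the cultured cells moved with time. Of 12 neutrophil markers 11 were found by symbol, and their sum without S100a9 ran from 240.3 to 1788 FPKM before 96 h and from 40635 to 99642 FPKM at 96 h. One wild-type library at 96 h listed S100a9 at 0.0511 FPKM, against 26546 to 73461 in the other 3 libraries of that time. In bulk RNA, fewer cells of a type and less RNA per cell cannot be told apart, and this holds for every level below.

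**Figure D1:**
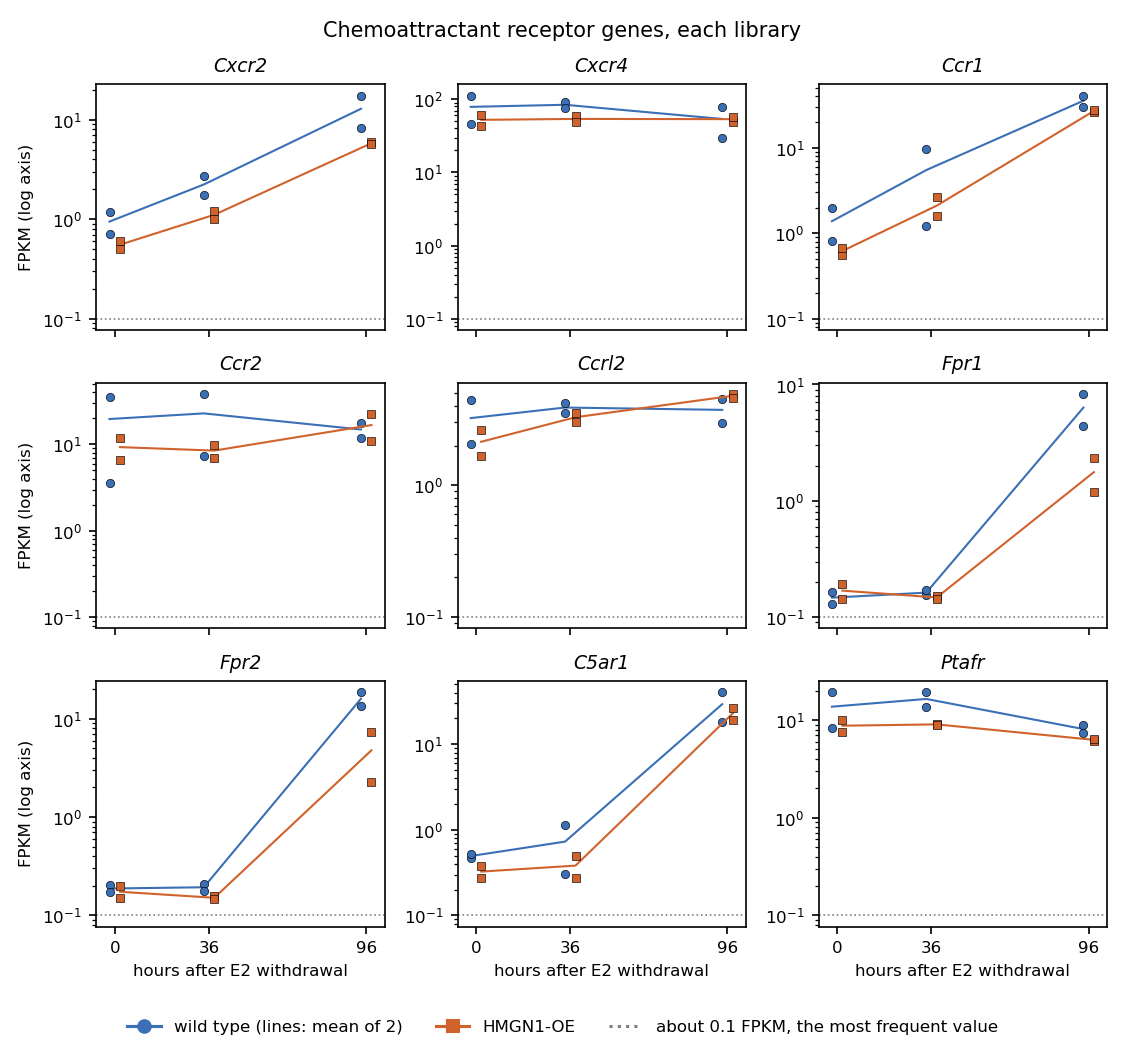
Each panel plots 1 receptor gene, with hours after E2 withdrawal on the x axis and FPKM on a log y axis. Points are the 12 libraries, lines join the means of 2, and the dotted line is about 0.1 FPKM, the most frequent value. Fpr1 and Fpr2 stay under 0.21 FPKM until 36 h and lie between 1.18 and 18.6 FPKM at 96 h, while Cxcr4 stays between 29.8 and 112 FPKM throughout.

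Cxcr2 was low in progenitors and rose from 36 to 96 h, while its step from 0 to 36 h did not pass the test in either genotype. At 0 h it measured 0.706 and 1.19 FPKM in wild-type and 0.603 and 0.509 FPKM in HMGN1-OE libraries. By 36 h the values were 2.74 and 1.74 in wild-type and 1.21 and 1.02 FPKM in HMGN1-OE libraries. At 96 h they were 17.5 and 8.32 against 5.96 and 5.68 FPKM. Both wild-type libraries lay above both HMGN1-OE libraries at all 3 times, as they did for 4.67% of all genes at 0 h, 84.4% at 36 h and 2.97% at 96 h. Within each genotype every later library lay above every earlier one. The change from 0 to 96 h was 2.76 on the log2 scale in wild-type cells (SE 0.39, limma adjusted p = 2.18e-11), or 13.6-fold in mean FPKM. It was 2.13 in HMGN1-OE cells (SE 0.39, adjusted p = 4.84e-07), or 10.5-fold.

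Cxcr4, the retention receptor, was the most abundant of the 9 in every library but 1. In wild-type libraries it measured 45.4 and 112 FPKM at 0 h, 92.7 and 75.3 FPKM at 36 h and 77.8 and 29.8 FPKM at 96 h. The HMGN1-OE libraries held 61.5 and 43.2 FPKM at 0 h, 59.2 and 48.4 FPKM at 36 h and 49.4 and 57.5 FPKM at 96 h. The libraries of the 3 times overlapped in wild-type cells, and the 2 wild-type libraries of a time differed by up to 2.61 times. Cxcr4 changed from 0 to 96 h by -0.56 in wild-type (SE 0.55, adjusted p = 0.341) and 0.05 in HMGN1-OE cells (SE 0.55, adjusted p = 0.942). Against the median change of all genes these values were 1.20 and 1.33 higher, and once libraries were centred on their medians the wild-type value became 1.29 and the HMGN1-OE value 1.36, both called higher (adjusted p = 0.00052 and 0.000488). Without the higher wild-type library of 96 h the wild-type value on the spike-in scale was -1.23 and called lower, against a median of -2.19 over all genes.

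Cxcr2 was also set against Cxcr4 within each library, a measure that does not depend on a scaling constant between libraries. The authors' methods name a loess normalization, which can vary with level, so the ratio is not free of the normalization. Cxcr2 came to 0.981% to 1.55% of the Cxcr4 level at 0 h and to 2.03% to 2.95% at 36 h. At 96 h it came to 22.5% and 28% in wild-type and to 12.1% and 9.87% in HMGN1-OE libraries. The ranges of the 3 times did not overlap in either genotype, and the genotypes did not overlap at 36 or 96 h. This ratio was chosen after its values were seen and was not tested.

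Ccr1, which binds Ccl3, Ccl5 and, in mouse, Ccl6 and Ccl9, rose most steeply among the chemokine receptors. At 0 h it measured 0.811 and 1.96 FPKM in wild-type and 0.563 and 0.680 FPKM in HMGN1-OE libraries. At 36 h the wild-type libraries held 9.74 and 1.22 and the HMGN1-OE libraries 2.64 and 1.57 FPKM. At 96 h they held 40.7 and 30.3 and 26.5 and 27.3 FPKM. All 96 h libraries lay above all earlier ones, and the 36 h values of wild-type cells differed by 7.97 times between the 2 libraries. The change from 0 to 96 h was 3.96 in wild-type (SE 0.44, adjusted p = 1.7e-17) and 4.11 in HMGN1-OE cells (SE 0.44, adjusted p = 9.17e-19), or 25.6-fold and 43.3-fold in mean FPKM.

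Ccr2, the receptor for Ccl2 that marks inflammatory monocytes, differed widely between duplicates. At 0 h the wild-type libraries held 3.60 and 35.7 FPKM and the HMGN1-OE libraries 11.97 and 6.61 FPKM. The 36 h values were 38.3 and 7.32 FPKM and 7.04 and 9.90 FPKM, and the 96 h values 12.004 and 17.7 FPKM and 10.9 and 22.5 FPKM, in the same order. Duplicates differed by 9.92 times at 0 h and 5.24 times at 36 h in wild-type cells, and every pair of groups compared overlapped except HMGN1-OE at 36 and 96 h, of which the later was higher. The change from 0 to 96 h was 0.26 in wild-type (SE 0.49, adjusted p = 0.616) and 0.75 in HMGN1-OE cells (SE 0.49, adjusted p = 0.158). Without the lower wild-type library of 0 h the wild-type value was -1.23 (adjusted p = 0.0389) and without the higher it was 1.76 (adjusted p = 0.00497), so its sign rested on 1 library. With centred libraries the changes were 2.11 (adjusted p = 0.0585) and 2.07 (adjusted p = 0.0684).

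Monocyte markers were set beside Ccr2 within each pair of duplicates. The library with the higher Ccr2 was the higher one for 10 of the 10 monocyte and macrophage markers in the wild-type pair of 0 h, for 8 in that of 36 h and for 7 in that of 96 h, and for 95.6%, 19.5% and 3.65% of all tested genes. In HMGN1-OE pairs it was so for 8, 5 and 9 of the 10 markers and for 94.7%, 25.0% and 90.5% of all tested genes. At 0 h it was also so for 5 of 5 progenitor markers in each genotype, so the counts at 0 h in both genotypes and at 96 h in HMGN1-OE cells are near those of all genes and show nothing about monocytes. Ly6c2, a surface marker of inflammatory monocytes, measured 92.3 and 846 FPKM in the wild-type libraries at 0 h and 2179 and 275 FPKM at 36 h, in the order in which Ccr2 is given above, and at 96 h it went against Ccr2, at 662 and 307 FPKM. Irf8, a transcription factor of monocytes and dendritic cells, measured 2.72 and 15.2 FPKM, then 12.9 and 6.47 FPKM, and at 96 h 2.86 and 2.58 FPKM. In HMGN1-OE libraries Ly6c2 was 10.9 and 8.43 FPKM at 0 h, 158 and 117 FPKM at 36 h and 702 and 1257 FPKM at 96 h. In the HMGN1-OE pair of 36 h Ly6c2, Irf8 (3.08 and 2.24 FPKM) and Ms4a6c (0.936 and 0.336 FPKM) went against Ccr2, and in the wild-type pair of 36 h Adgre1 (59.6 and 102 FPKM) and Klf4 (0.415 and 0.787 FPKM) did. The part of monocytes in the Ccr2 values was not tested. The summed level of the 10 monocyte and macrophage markers, all found by symbol, ran from 203 to 1144 FPKM in wild-type libraries at 0 h, from 497 to 2418 FPKM at 36 h and from 417 to 755 FPKM at 96 h. In HMGN1-OE libraries it ran from 209 to 369 FPKM, from 295 to 307 FPKM and from 790.5 to 1369 FPKM.

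**Figure D2:**
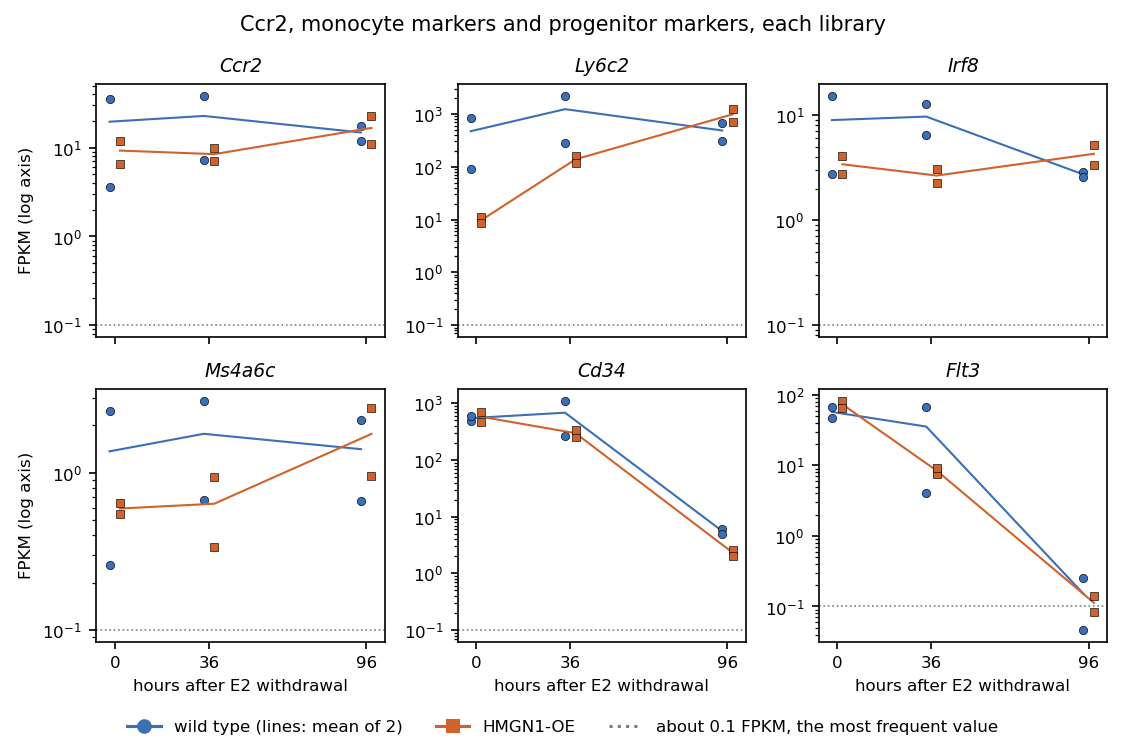
Panels show Ccr2, the monocyte markers Ly6c2, Irf8 and Ms4a6c and the progenitor markers Cd34 and Flt3, with hours after E2 withdrawal on the x axis and FPKM on a log y axis. Points are libraries and lines join means of 2. In wild-type cells at 0 and 36 h, 1 library of each pair is high and 1 low in Ccr2 and all 3 monocyte markers. In HMGN1-OE cells at 36 h all 3 are higher in the library with the lower Ccr2. Of all 10 monocyte and macrophage markers, 8 in the wild-type and 5 in the HMGN1-OE pair of 36 h went with Ccr2. At 0 h 95.6% of all tested genes were higher in the wild-type library with the higher Ccr2.

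The 2 wild-type libraries of 36 h also differed in other markers. The library with 9.74 FPKM of Ccr1 and 38.3 FPKM of Ccr2 held 264 FPKM of Cd34 and 4.10 FPKM of Flt3, markers of progenitors, and the other held 1105 and 67.0 FPKM. Of the other 3 progenitor markers listed, Sox4 was also lower in the first library (13.1 and 48.2 FPKM), Myb was 476 and 546 FPKM, and Kit was slightly higher in the first (71.1 and 63.3 FPKM). Of all tested genes 19.5% were higher in the first library. C5ar1 was 1.15 FPKM in the first and 0.304 FPKM in the second. No receptor passed the test from 0 to 36 h. Without the second library, Ccr1 alone was called in wild-type cells from 0 to 36 h (2.21, adjusted p = 0.00713), and without the first its change was -0.059 (adjusted p = 0.931).

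Ccrl2 was present at a low and narrow level. It measured 2.04 and 4.42 FPKM in wild-type and 2.61 and 1.66 FPKM in HMGN1-OE libraries at 0 h, and 4.23 and 3.54 against 3.01 and 3.55 FPKM at 36 h. At 96 h it measured 4.50 and 2.95 against 4.92 and 4.61 FPKM. In HMGN1-OE cells both 96 h libraries lay above both 0 h libraries, a change of 0.89 (SE 0.41, adjusted p = 0.0438), and in wild-type cells they overlapped, with a change of 0.20 (SE 0.41, adjusted p = 0.646). The HMGN1-OE call was lost with a pseudocount of 0.1 (adjusted p = 0.0583), with no filter on low values (adjusted p = 0.131), without the trend (adjusted p = 0.0718), without moderation (adjusted p = 0.052) and without any one of the 6 HMGN1-OE libraries (highest adjusted p 0.237), and the genotypes' changes did not differ past the threshold (0.69, SE 0.58, adjusted p = 0.81). With centred libraries Ccrl2 was called in both genotypes, with a change of 2.05 in wild-type (adjusted p = 5.94e-05) and 2.21 in HMGN1-OE cells (adjusted p = 6.01e-05), and quantile normalisation gave 1.86 and 2.03, also called. At 96 h both HMGN1-OE values of Ccrl2 exceeded both wild-type values, which held for no other receptor. This difference, 0.31 (SE 0.41, limma adjusted p = 0.859), was not called and lay under the median difference of all genes, 0.36.

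Fpr1 and Fpr2, the receptors for formylated peptides of bacteria and mitochondria, appeared at 96 h. Fpr1 lay between 0.129 and 0.194 FPKM in the 8 earlier libraries, near the level listed for genes without signal. At 96 h it was 4.37 and 8.29 FPKM in wild-type and 2.35 and 1.18 FPKM in HMGN1-OE libraries. The groups of the 2 genotypes did not overlap at 96 h, and every 96 h library lay above every earlier one. The change from 0 to 96 h was 2.62 in wild-type (SE 0.33, adjusted p = 4.18e-14) and 1.21 in HMGN1-OE cells (SE 0.33, adjusted p = 0.000741), with no fold given because the 0 h level is near that of no signal. The HMGN1-OE call was lost without the higher library of 96 h (0.90, adjusted p = 0.0738).

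Fpr2 followed the same course at a higher level. Its 8 earlier libraries held 0.146 to 0.208 FPKM, and at 96 h it was 18.6 and 13.4 FPKM in wild-type and 7.30 and 2.25 FPKM in HMGN1-OE libraries. Again the genotypes did not overlap at 96 h, and the HMGN1-OE duplicates differed by 3.25 times. Fpr2 changed from 0 to 96 h by 3.82 in wild-type (SE 0.35, adjusted p = 2.58e-25) and 2.15 in HMGN1-OE cells (SE 0.35, adjusted p = 1.8e-08). Within each 96 h library Fpr2 exceeded Fpr1, by 1.61 to 4.25 times, on the FPKM scale, which accounts for transcript length.

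C5ar1, the receptor for C5a, rose in both genotypes. At 0 h it was 0.472 and 0.516 FPKM in wild-type and 0.276 and 0.375 FPKM in HMGN1-OE libraries, and at 36 h 1.15 and 0.304 against 0.490 and 0.274 FPKM. At 96 h it reached 40.5 and 18.2 FPKM in wild-type and 26.4 and 19.3 FPKM in HMGN1-OE libraries. The genotypes overlapped at 36 and 96 h, and all 96 h libraries stood far above the rest. The change from 0 to 96 h was 4.24 in wild-type (SE 0.40, adjusted p = 1.68e-24) and 4.16 in HMGN1-OE cells (SE 0.40, adjusted p = 1.42e-23), or 59.5-fold and 70.4-fold in mean FPKM.

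Ptafr, the receptor for platelet-activating factor, was present in progenitors. It measured 8.25 and 19.2 FPKM in wild-type and 9.93 and 7.58 FPKM in HMGN1-OE libraries at 0 h, 13.6 and 19.3 against 9.13 and 8.94 FPKM at 36 h, and 8.83 and 7.35 against 6.15 and 6.40 FPKM at 96 h. Both wild-type libraries lay above both HMGN1-OE libraries at 36 and 96 h, as for 84.4% and 2.97% of all genes, and overlapped with them at 0 h. The change from 0 to 96 h was -0.59 in wild-type (SE 0.48, adjusted p = 0.241) and -0.41 in HMGN1-OE cells (SE 0.48, adjusted p = 0.436). These values were 1.16 and 0.87 above the median change of all genes, and with centred libraries they became 1.25 and 0.90, both called. Without the lower wild-type library of 0 h the wild-type change was -1.15 and called lower, against a median of -2.18 over all genes.

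Counted together, 5 of the 9 receptors were called higher from 0 to 96 h in wild-type cells and 6 in HMGN1-OE cells, where 4.31% and 5.08% of all tested genes were called higher. None was called lower, where 77.2% and 62.4% of all genes were. Both 96 h libraries lay above both 0 h libraries for 5 receptors in wild-type cells and 6 in HMGN1-OE cells, against 4.84% and 7.95% of all genes. The changes of all 9 lay above the median change of all genes in both genotypes, with a median over the receptors of 2.62 in wild-type cells and 1.21 in HMGN1-OE cells. Fpr1, Fpr2 and C5ar1 passed the filter through their 96 h levels, so these counts over the receptors support nothing about the group. With no filter on low values, the 5 receptors that rose in both genotypes were again called in both, where 2.72% of all 23309 genes were called higher in each.

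The calls came in the second interval. From 36 to 96 h Cxcr2, Ccr1, Fpr1, Fpr2 and C5ar1 were called higher in both genotypes, where 3.15% of all genes were in wild-type cells and 4.02% in HMGN1-OE cells. From 0 to 36 h none of the 9 was called in either genotype, where 0.617% and 1.8% of all genes were called, and 1 receptor, Ccr1, had an unadjusted limma p under 0.05 in each. The mean of Cxcr2 was 2.36-fold higher at 36 than at 0 h in wild-type and 2.0-fold in HMGN1-OE cells. That of Ccr1 was 3.39-fold and that of Ccrl2 1.535-fold higher in HMGN1-OE cells, all without overlap. In wild-type cells the 3.96-fold higher mean of Ccr1 rested on the library with 9.74 FPKM, since the other held 1.22 FPKM, within the 0 h values. Whether the intervals differed in their change was not tested. Without the higher HMGN1-OE library of 96 h, Fpr1 lost its call from 36 to 96 h in HMGN1-OE cells (0.93, adjusted p = 0.0657). In wild-type cells Cxcr4, Ccr2 and Ptafr were called lower from 36 to 96 h with 1 library left out. Each fell less than the median gene of the same fit. Cxcr4 changed by -1.46 without the higher library of 96 h, where the median of all genes was -2.65. Ccr2 changed by -1.33 without the lower library of 36 h (median -2.08) and Ptafr by -0.93 without either library of 0 h (median -2.21). The intervals from 0 and from 36 to 96 h share the 96 h libraries.

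**Figure D3:**
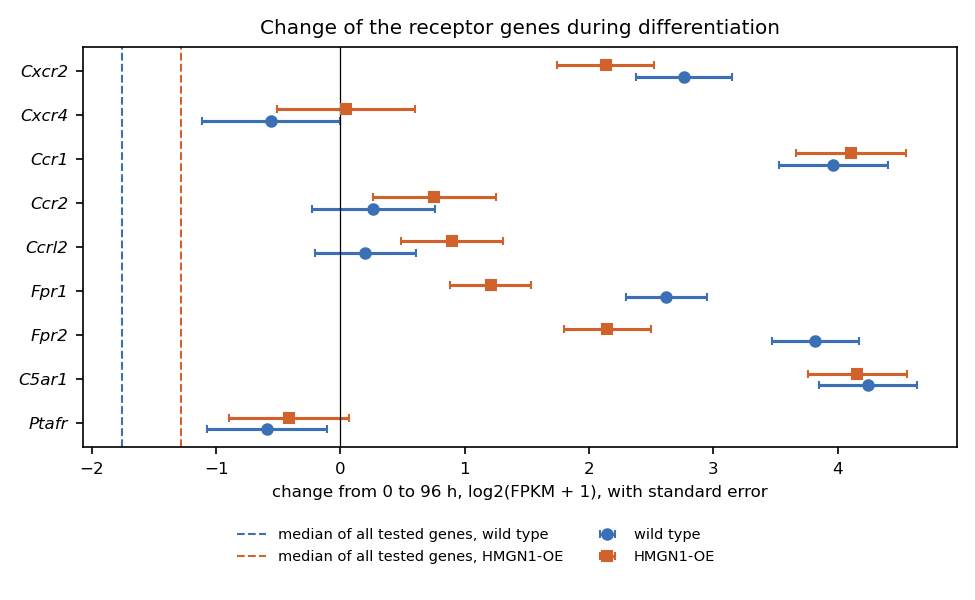
Change from 0 to 96 h for each receptor on the log2(FPKM + 1) scale, x axis, with limma standard errors, in wild-type (circles) and HMGN1-OE cells (squares). Dashed lines are the medians of all 11516 tested genes, -1.75 and -1.28. All points lie to the right of the line of their genotype, including Cxcr4 and Ptafr in wild-type cells, which lie left of 0 on this scale and turn positive with centred libraries.

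The genotypes were compared at each time, since the study asked how HMGN1 overexpression bears on myeloid differentiation. At 0 h no receptor was called, where 1.36% of all genes were, and none had an unadjusted limma p under 0.05. Cxcr2, Ccr1 and C5ar1 were lower in each HMGN1-OE library than in each wild-type library, which was so for 4.67% of all genes. At 36 h again none was called, where 1.26% of all genes were, and none had an unadjusted p under 0.05. Cxcr2, Cxcr4, Fpr1, Fpr2 and Ptafr were lower in this way at 36 h, as were 84.4% of all genes, and the median difference of all genes was -0.54.

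At 96 h Fpr1 and Fpr2 were called lower in HMGN1-OE cells, where 0.347% of all genes were called lower. Fpr1 differed by -1.39 (SE 0.33, limma adjusted p = 0.00426) and Fpr2 by -1.69 (SE 0.35, adjusted p = 0.000367), and neither gene's libraries overlapped between genotypes. Cxcr2 differed by -0.95 (SE 0.39, unadjusted p = 0.015, adjusted p = 0.859), at 0.451 of the wild-type mean. Cxcr2, Ccr1, Fpr1, Fpr2 and Ptafr were without overlap and lower in HMGN1-OE cells, against 2.97% of all genes, and the median difference of all genes was 0.36.

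Both calls at 96 h depended on the processing. With a pseudocount of 0.1 the adjusted p was 0.561 for Fpr1 and 0.261 for Fpr2, with no filter 0.315 and 0.564, and with each gene's own variance and no moderation 0.805 for both. Centring gave 0.218 for both and quantile normalisation 0.115 and 0.110. The differences had the same sign in every alternative, from -2.01 to -0.99 for Fpr1 and from -2.37 to -1.01 for Fpr2. Fpr1 lost its call without the lower HMGN1-OE library or the higher wild-type library of 96 h, and Fpr2 without the lower HMGN1-OE library, with an adjusted p of 1.0.

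Whether the genotypes differed in their change over time was tested by the interaction. No receptor was called from 0 to 96 h, where 0.677% of all genes were, or from 36 to 96 h, where 0.547% were. From 0 to 96 h the interaction was -1.67 for Fpr2 (SE 0.50, adjusted p = 0.0905) and -1.41 for Fpr1 (SE 0.46, adjusted p = 0.209), and for the other 7 it lay between -0.63 and 0.69. Without the higher HMGN1-OE library of 96 h the interaction was called for Fpr2 (adjusted p = 0.00904), and without the lower wild-type library of 96 h for Fpr1 (adjusted p = 0.0245). Averaged over the 3 times, no receptor was called between genotypes, where 1.95% of all genes were, and all 9 differences were negative. The lowest was that of Cxcr2, -0.62 (SE 0.22, adjusted p = 0.196), followed by Fpr2, -0.59 (SE 0.20, adjusted p = 0.142). Cxcr2 was called in this average without the lower wild-type library of 96 h (adjusted p = 0.0301) and Fpr2 without the higher HMGN1-OE library of 96 h (adjusted p = 0.0241).

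**Figure D4:**
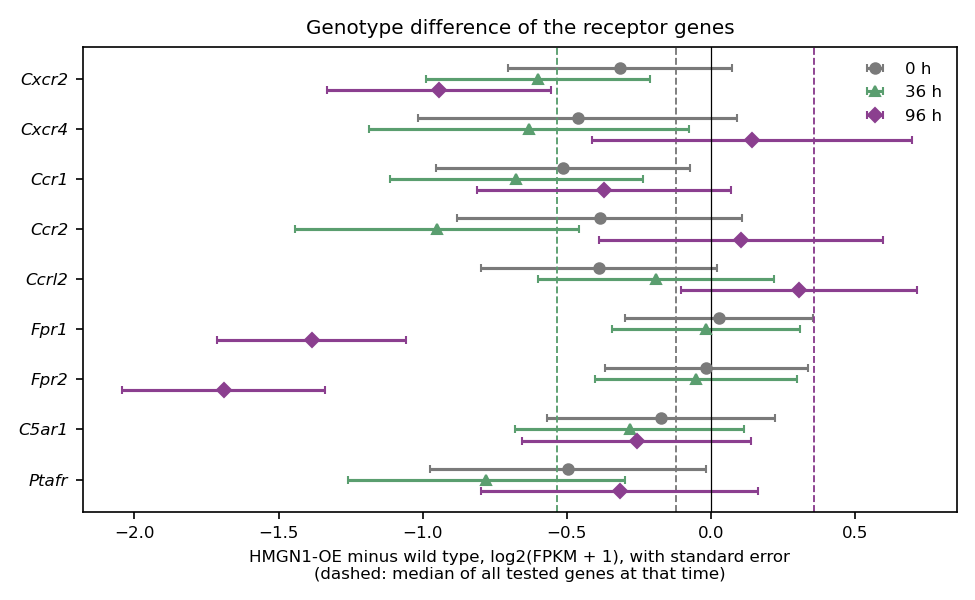
HMGN1-OE minus wild type for each receptor on the log2(FPKM + 1) scale, x axis, with limma standard errors, at 0 h (circles), 36 h (triangles) and 96 h (diamonds). Dashed lines are the medians of all tested genes, -0.12, -0.54 and 0.36. Fpr1 and Fpr2 lie near 0 at 0 and 36 h and at -1.39 and -1.69 at 96 h.

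At 96 h Mmp9 and Retnlg, 2 of the 11 neutrophil markers, were also called lower in HMGN1-OE libraries. Mmp9, a gelatinase of late neutrophil granules, was 9.25 and 21.7 FPKM in wild-type and 3.80 and 1.75 FPKM in HMGN1-OE libraries, a difference of -2.07 (SE 0.35, adjusted p = 1.1e-06). Retnlg, a secreted protein of mature neutrophils, was 139 and 151 against 45.5 and 45.1 FPKM (-1.66, SE 0.44, adjusted p = 0.0293). Mpo, Elane and Ctsg, granule genes of neutrophil precursors, were called higher in HMGN1-OE libraries at 96 h, by 2.39, 2.50 and 2.48, where 0.321% of all genes were called higher. The other 2 precursor markers, Prtn3 and Ms4a3, were not called (2.11 and 1.63), and the libraries of Mpo overlapped (116 and 13.5 against 114 and 406 FPKM). At 0 h Mpo and Elane were called lower in HMGN1-OE libraries (-2.37 and -2.74), where 0.564% of all genes were. Of the 11 neutrophil markers 2 were called lower and 1, S100a9, higher, the last with the single wild-type value of 0.0511 FPKM in it. The rest were not called, and the median difference of the list was -0.20. Without S100a9 their sum ran from 40635 to 96644 FPKM in wild-type and from 69330 to 99642 FPKM in HMGN1-OE libraries at 96 h. Of the 6 eosinophil markers 5 were tested and 4 were called lower in HMGN1-OE libraries, where 0.347% of all genes were, their summed level running from 1099.8 to 2413 FPKM in wild-type and from 235 to 561 FPKM in HMGN1-OE libraries. The part of cell makeup in the Fpr1 and Fpr2 values was not tested.

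Within a library, the receptors' shares of their summed FPKM are not changed by a scaling constant between libraries, though a normalization that varies with level can change them. Cxcr4 made up 56.9% to 73.7% of the sum in the 8 libraries of 0 and 36 h and 21.8% to 39.2% at 96 h. Ccr1 took 0.642% to 5.98% before 96 h and 18.1% to 22.2% at 96 h, and C5ar1 at most 0.766% before and 13.2% to 18.9% then. Between 4 and 7 of the 9 receptors reached 1 FPKM in a library before 96 h, and all 9 did so in each library at 96 h.

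**Figure D5:**
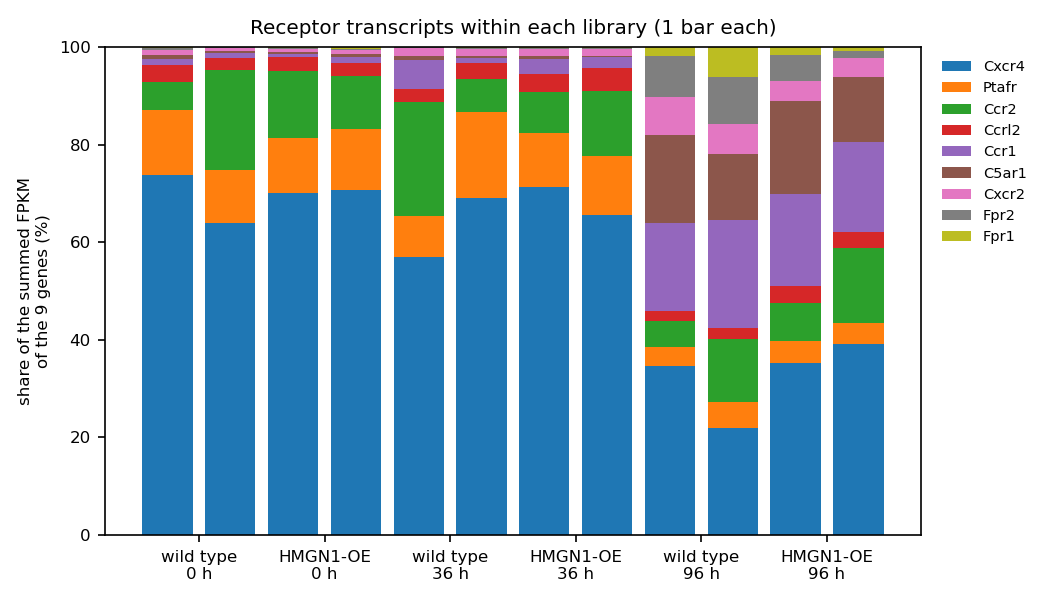
Share of each receptor in the summed FPKM of the 9, y axis in percent from 0 to 100, with 1 bar for each of the 12 libraries grouped by genotype and time. Cxcr4 holds 56.9% to 73.7% of every bar at 0 and 36 h and 21.8% to 39.2% at 96 h, where Ccr1 holds 18.1% to 22.2% and C5ar1 13.2% to 18.9%.

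Ordered by mean level at 0 h in wild-type cells, Cxcr4 (78.7 FPKM) stood above Ccr2 (19.7), Ptafr (13.7), Ccrl2 (3.23), Ccr1 (1.39), Cxcr2 (0.949), C5ar1 (0.494), Fpr2 (0.188) and Fpr1 (0.147), and of these neighbours only Ccr2 with Ptafr and Ccr1 with Cxcr2 overlapped. The order at 96 h was Cxcr4 (53.8 FPKM), Ccr1 (35.5), C5ar1 (29.4), Fpr2 (16.0), Ccr2 (14.9), Cxcr2 (12.9), Ptafr (8.09), Fpr1 (6.33) and Ccrl2 (3.73). Each neighbouring pair in this 96 h order overlapped in its libraries. In HMGN1-OE cells at 96 h the order was Cxcr4 (53.5 FPKM), Ccr1 (26.9), C5ar1 (22.9), Ccr2 (16.7), Ptafr (6.27), Cxcr2 (5.82), Fpr2 (4.77), Ccrl2 (4.76) and Fpr1 (1.76), and only C5ar1 with Ccr2, Cxcr2 with Fpr2, and Fpr2 with Ccrl2 overlapped.

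The receptors' patterns over the 12 libraries were set against all genes by Pearson's r on log2(FPKM + 1), a description in which the points share libraries, times and spike-in scale. Among genes with a mean of at least 5 FPKM, those most like C5ar1 were Ankrd22 (r = 0.997), Lcn2 (0.995), a neutrophil granule protein, and 6430548M08Rik (0.994). Ccr1 was closest to Aldh3b1 (0.989), Itgam (0.988), the CD11b integrin, and Tbc1d8 (0.986). Cxcr4 stood with Cish (0.958), Ugdh (0.955) and Hist1h1c (0.951), Ptafr with Gcnt1 (0.959), Sema4d (0.959) and Pbxip1 (0.951), and Ccr2 with Cd97 (0.938), Cdkn2a (0.903) and Blvrb (0.885).

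For the other 4 receptors, whose mean was under 5 FPKM, genes with a mean of at least 1 FPKM were searched, a choice made after values were seen. Fpr1 was closest to Mmp9 (r = 0.999), Slfn1 (0.982) and Clec4n (0.975), and Fpr2 to 1700047M11Rik (0.986), Slfn1 (0.984) and Bst1 (0.981). Cxcr2 was closest to Ppp1r3d (0.993), Cd300ld (0.984) and Cnr2 (0.982), and Ccrl2 to Klf3 (0.957), Anxa4 (0.941) and Tmem8 (0.936). Between receptors, r was 0.971 for Fpr1 with Fpr2, 0.957 for Cxcr2 with Ccr1, 0.95 for Ccr1 with C5ar1 and 0.75 for Cxcr4 with Ptafr.

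Most other chemokine receptors were silent in these cultures. Of 19, all listed, 18 stayed under the limit for testing, and Cxcr1, the second receptor for neutrophil CXC chemokines, lay between 0.0965 and 0.142 FPKM in all 12 libraries. Of 12 other attractant receptors 5 were tested. Ltb4r1, the leukotriene B4 receptor, rose by 3.02 in wild-type cells and 3.71 in HMGN1-OE cells from 0 to 96 h, the second C5a receptor C5ar2 by 1.90 and 2.21, and C3ar1, the C3a receptor, by 1.36 and 0.77. P2ry2, a nucleotide receptor, changed by -1.23 and -1.17, a smaller fall than that of the median gene in both genotypes. S1pr4, a sphingosine phosphate receptor, was not called (0.38 and 0.53).

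Among 23 genes for ligands or enzymes that make them, 13 were tested. Cxcl2, Ccl6, C3, Anxa1 and Camp were called higher and Pf4 and Ccl9 lower at 96 h than at 0 h in both genotypes. Cxcl2, a ligand of Cxcr2, was at most 1.05 FPKM before 96 h and between 5.40 and 10.2 FPKM at 96 h. Ccl6, a ligand of Ccr1, rose by 5.15 in wild-type cells and 4.93 in HMGN1-OE cells, and Ccl9, another, changed by -4.36 and -4.59. C3, the complement precursor, rose by 3.24 and 4.73, Anxa1, a ligand of formyl peptide receptors, by 1.60 and 1.69, and Camp, whose peptide is also sensed by Fpr2, by 6.40 and 6.38. Pf4, a CXC chemokine of megakaryocytes, changed by -3.07 and -3.35.

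Between genotypes, Ccl2, the ligand of Ccr2, was called lower in HMGN1-OE cells at 96 h (-1.58, SE 0.34, adjusted p = 0.000748). The wild-type libraries held 0.947 and 9.60 FPKM and the HMGN1-OE libraries 0.454 and 0.596 FPKM, so that difference rests on 1 library. Camp was called lower in HMGN1-OE cells at 36 h (-2.27, SE 0.58, adjusted p = 0.00961), at 28.1 and 19.5 FPKM in wild-type against 9.20 and 1.51 FPKM in HMGN1-OE libraries.

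Downstream of the receptors, all 30 genes of G protein signalling were tested. In wild-type cells 5 were called higher and 13 lower from 0 to 96 h, with a list median of -1.03, and in HMGN1-OE cells 5 higher and 6 lower, with a median of -0.52, both above the median gene. Of all tested genes, 4.31% were called higher and 77.2% lower in wild-type cells and 5.08% and 62.4% in HMGN1-OE cells. Among those called higher in both were Pik3r5, the regulatory subunit of phosphoinositide 3-kinase gamma (2.43 and 2.66), the Rac exchange factor Prex1 (1.23 and 1.29), its effector kinase Pak1 (1.35 and 2.21) and the Src-family kinase Fgr (4.08 and 4.18). Gna13, Gnb1, Gng2, Gng12, Plcb3 and Elmo1 were called lower in both. Of these, Gng12, a gamma subunit, changed by -3.75 and -2.80 and Elmo1, an adaptor of Rac activation, by -2.09 and -2.03, more than the median gene in both genotypes, whereas Gna13 changed by -1.55 and -1.11, less than the median gene. Gnb1, the beta subunit, changed by -1.93 and -1.41, Gng2 by -1.22 and -1.42 and Plcb3, a phospholipase C, by -1.40 and -1.13. None of the 30 was called between genotypes at any time. Of all tested genes 1.36% were called at 0 h, 1.26% at 36 h, and 0.321% higher and 0.347% lower at 96 h, so this count shows nothing about the list.

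Of 16 genes for desensitisation and trafficking, 14 were tested. Arrb2, the arrestin that binds phosphorylated receptors, rose by 1.49 in wild-type cells and 1.58 in HMGN1-OE cells. The regulators of G protein signalling Rgs3 (0.77 and 0.94) and Rgs10 (1.28 and 2.10) and the modulator Gpsm3 (1.34 and 1.41) also rose in both. Grk3, a receptor kinase listed under its older symbol Adrbk2, changed by -2.01 and -2.28, and Rgs1 by -1.16 and -1.34, both called lower. Relative to the median gene, Rgs1 was higher in wild-type and lower in HMGN1-OE cells. In wild-type cells 4 of the 14 were called higher and 2 lower at 96 h than at 0 h. The share of all tested genes was 4.31% and 77.2%. For HMGN1-OE cells the list counts were 5 and 3, beside shares of 5.08% and 62.4%. None of the 14 was called between genotypes. Over all tested genes, the shares called between genotypes were 1.36% at 0 h and 1.26% at 36 h. At 96 h 0.321% were higher and 0.347% lower, so this absence shows nothing about the list.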

How the data were processed

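RNA was taken by the authors from a fixed number of cells with TRIzol, synthetic ERCC RNAs were added, and polyA libraries were made with a TruSeq RNA kit that does not mark strand and sequenced on a NextSeq500. The authors' methods name Bowtie and a loess normalization of RPKM to the ERCC RNAs, whereas the submitters' processing notes name HISAT, Cufflinks 2.0.0 and mm9, so the aligner behind the deposited FPKM is uncertain. The deposited table holds 1 FPKM value per gene and library. Its columns state genotype and time, and no column was left unused.

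The deposited values were put on the log2(FPKM + 1) scale, and the 11516 genes reaching 1 FPKM in 2 or more of the 12 libraries were fitted with limma 3.58.1 in R 4.3.3 (lmFit, eBayes with trend, 6 group means, two-sided tests, Benjamini-Hochberg over these genes). The 9 receptors, the 5 lists of other pathway genes and the marker lists were chosen with earlier results of these data known. Of the lists the text names genes called from 0 to 96 h in both genotypes, the 4 with the largest change in wild-type cells and any called between genotypes at a time, and of the markers a few with their values. A few items of these lists are not reported here. Figures and tables were made in Python 3.11.15 (numpy 2.4.6, pandas 2.3.3, matplotlib 3.10.9). Sequences are from RefSeq on GRCm38.p6, and no coordinate of mm9 is given. The fit was tested on simulated data. Alternatives were a pseudocount of 0.1, no filter, a mean of at least 5 FPKM, centred libraries, quantile normalisation, only the libraries compared, limma without the trend, no moderation, and each library left out in turn.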

Additional observations from a re-analysis of the deposited data

How the results depend on the processing

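No paired analysis was possible because the digits in the column names are not those of the sample names, which leaves a replicate block undefined. Depth is unknown, and values near 0.1 FPKM cannot be told from no signal. Of 340 values under other settings (the genotype differences at 3 times and the changes from 0 to 96 h of each receptor) 298 kept their direction and side of the threshold, and of 540 with 1 library left out 506 did. Causes were not tested. The mean of at least 5 FPKM tests 5 of the 9 receptors. It leaves out Cxcr2, Ccrl2, Fpr1 and Fpr2, whose calls could not be kept under it.

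The 2 receptors called lower at 96 h became 0 with a pseudocount of 0.1, no filter, centring, no trend, no moderation or only the libraries compared. With quantile normalisation 1 was called lower, Cxcr2. A mean of at least 5 FPKM left both Fpr1 and Fpr2 untested. From 0 to 96 h the mean filter tested only Ccr1 and C5ar1 of the receptors called higher, and both stayed called in each genotype. The 5 called higher in wild-type cells became 8 with centring and 9 with quantile normalisation. The 6 in HMGN1-OE cells became 8 with either scaling. Of all genes, 36.5% (wild type) and 30.9% (HMGN1-OE) were then called higher with centring and 32.7% and 30.3% with quantile normalisation, against 4.31% and 5.08%. From 36 to 96 h the 5 in each genotype became 8 with either scaling, and 2 with the mean filter, which tested only Ccr1 and C5ar1 of them. Centring then called 38.2% and 28.6% of all genes higher and quantile normalisation 31.9% and 28.7%, against 3.15% and 4.02%. Quantile normalisation called 1 lower in the average over times, and using only the libraries compared called 1 higher, Ccr1, from 0 to 36 h and 7 higher, with Ccr2 and Ccrl2 added, and 1 lower, Ptafr, from 36 to 96 h in HMGN1-OE cells.

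Centring turned the difference of Fpr2 at 0 h to 0.12, and at 36 h those of Fpr1 to 0.56, Fpr2 to 0.53, C5ar1 to 0.30 and Ccrl2 to 0.39 (quantile 0.23). At 96 h centring and quantile normalisation gave -0.26 and -0.35 for Cxcr4, -0.30 and -0.42 for Ccr2 and -0.10 and -0.089 for Ccrl2. From 0 to 96 h they gave 1.29 and 1.53 for Cxcr4 and 1.25 and 1.34 for Ptafr in wild-type, and 1.36 and 1.53 for Cxcr4 and 0.90 and 0.87 for Ptafr in HMGN1-OE cells, all called, and both scalings called Ccrl2 in both genotypes.

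With 1 library left out, the count called lower at 96 h ran from 0 to 2, and those called lower in the average, in both interactions that end at 96 h and from 36 to 96 h in wild-type cells from 0 to 1. The count lower from 0 to 96 h in wild-type cells ran from 0 to 2, and that higher from 0 to 36 h from 0 to 1. At 0 h the differences ran from -1.10 to 0.18 for Cxcr4, -1.89 to 1.11 for Ccr2, -0.81 to 0.029 for Ccrl2, -0.0042 to 0.058 for Fpr1, -0.047 to 0.013 for Fpr2 and -1.06 to 0.066 for Ptafr. At 36 h they ran from -1.81 to 0.46 for Ccr1, -2.07 to 0.17 for Ccr2 and -0.64 to 0.079 for C5ar1, and at 96 h from -0.54 to 0.82 for Cxcr4, -0.39 to 0.59 for Ccr2 and -0.81 to 0.30 for C5ar1. From 0 to 96 h the ranges were -1.23 to 0.12 for Cxcr4, -1.23 to 1.76 for Ccr2 and -0.22 to 0.62 for Ccrl2 in wild-type, and -0.20 to 0.30 for Cxcr4 in HMGN1-OE cells.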

Other observations

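Lpcat2, an enzyme that makes platelet-activating factor, the ligand of Ptafr, was the one gene of the 5 pathway lists called between genotypes at all 3 times. It measured 6.33 and 22.1 FPKM in wild-type and 8.88 and 0.518 FPKM in HMGN1-OE libraries at 0 h (-1.75, SE 0.44, limma adjusted p = 0.00778). At 36 h it measured 34.7 and 12.8 against 0.252 and 4.95 FPKM (-3.02, SE 0.44, adjusted p = 3.57e-09), and at 96 h 8.84 and 10.9 against 0.147 and 3.89 FPKM (-2.19, SE 0.44, adjusted p = 0.000226). The genotypes overlapped at 0 h and not at 36 or 96 h. At each time 1 HMGN1-OE library lay under 0.52 FPKM and the other at 3.89 FPKM or above, so the HMGN1-OE duplicates differed by more than the wild-type duplicates. Whether the low libraries come from one culture is not given by the columns.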
